A study of Mus musculus with 6 samples.

Results

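The semaphorins, plexins and neuropilins were described in bone marrow-derived macrophages with and without the co-repressor subunit GPS2. The family was taken as every gene measured by a probe set with exactly 1 symbol, where that symbol began with Sema or Plxn followed by a digit or letter, or was Nrp1 or Nrp2. This gave 31 genes of 18820 tested, namely 20 semaphorins and 11 receptors (9 plexins and 2 neuropilins). The GPS2KO group held 3 arrays of unstimulated macrophages from mice labelled GPS2 MKO, and the WT group held 3 arrays of unstimulated macrophages from wild-type mice. The labels call the knockout a macrophage GPS2 KO and name no deleted exon and no Cre driver. In both groups the mice were male and about 12 to 16 weeks old, and marrow cells were differentiated for 7 days with 30% medium conditioned by L929 cells, a fibroblast line whose supernatant carries the macrophage growth factor. Nothing in the labels ties each array to its own animal. The p-values therefore reflect the spread between these samples alone, and that spread may be technical.

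Semaphorins are ligands that are secreted, span the membrane or are held on it by a lipid anchor, and they were first known for steering growing axons. Their main receptors are the plexins, whose cytoplasmic part switches off small GTPases of the Ras and Rap kind and so alters adhesion and the cytoskeleton. Secreted class 3 semaphorins mostly need a neuropilin as the binding partner of a plexin, and neuropilins also bind vascular endothelial growth factors. In myeloid and lymphoid cells several of these proteins act in cell contact, migration and activation.

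In GPS2KO macrophages 4 family genes rose and 5 fell. The rises were those of the ligands Sema6d (1.46-fold), Sema4a (1.32-fold) and Sema4c (1.16-fold) and of the receptor Nrp1 (1.20-fold). The falls were those of the ligands Sema4d (1.24-fold), Sema6b (1.15-fold) and Sema7a (1.14-fold) and of the receptors Plxna2 (1.34-fold) and Plxnd1 (1.18-fold). Values are log2 intensities. A change is the GPS2KO mean less the WT mean of these log2 values, given with its standard error (SE) or limma's 95% confidence interval (95% interval). A gene is said to have risen or fallen where its limma p, adjusted over all tested genes by Benjamini-Hochberg, lay under 0.05. The 9 called genes are 9 of 31, where 6.72% of all tested genes were called, 2.9% as rises and 3.83% as falls. The median change was -0.07 over the family and -0.01 over all tested genes, and the median size of change was 0.12 over the family and 0.06 over all tested genes. Leaving out 1 array gave between 4 and 6 called family genes, 4 without GPS2KO replicate 1, GPS2KO replicate 2, WT replicate 2 or WT replicate 3 and 5 without GPS2KO replicate 3. Sema6d, Sema4a, Sema4d and Nrp1 passed under each alternative setting that was run.

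**Figure D1:**
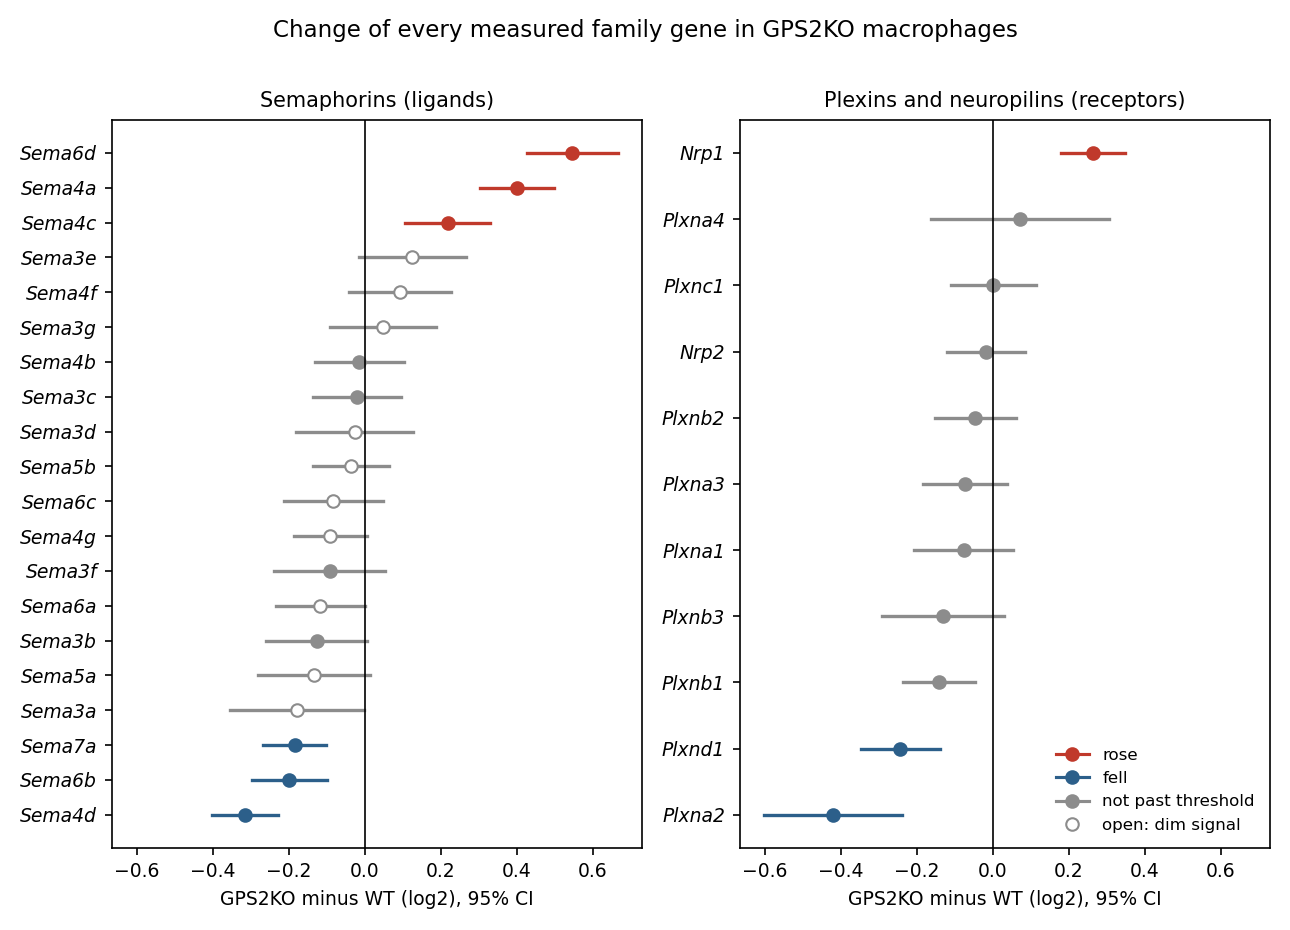
Change of each of the 31 family genes in GPS2KO relative to WT on the log2 scale (x axis), with limma's 95% confidence interval as a line. Semaphorins are on the left and receptors on the right, red marks rises, blue falls and grey genes that did not pass, and open points are dim. Sema6d at 0.55 and Plxna2 at -0.42 lie farthest from 0.

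Dim signals were more common among the ligands than among the receptors. Signals with a 6-array mean below 5.49, which 40% of tested genes had, are called dim here, since leftover background compresses changes there. By that limit 10 of the 20 semaphorins and 0 of the 11 receptors were dim. All 9 called genes were among the 21 that were not dim, where 10.6% of all tested genes above the limit were called. The GPS2KO and WT arrays did not overlap for 16 of the 31 genes, dim ones included, against 27.1% of all tested genes. The share was 37.3% of all tested genes that were not dim. Beyond the 9 called genes, the 16 included Plxnb1, Plxna3 and the dim genes Sema3a, Sema4g, Sema5a and Sema6a, with lower GPS2KO means. They also included the dim gene Sema3e, with a higher GPS2KO mean.

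**Figure D2:**
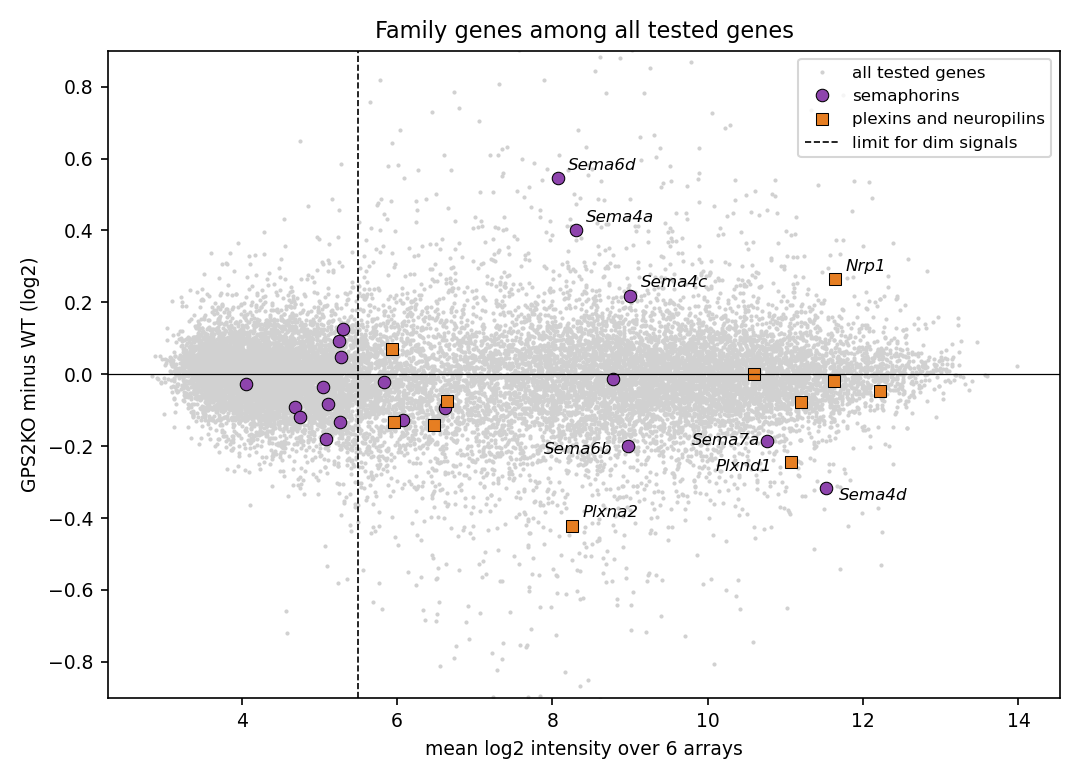
Mean log2 intensity over the 6 arrays (x axis) against the change GPS2KO minus WT on the log2 scale (y axis) for all tested genes in grey, semaphorins as purple circles and receptors as orange squares. The dashed line is the limit for dim signals at 5.49, 45 genes with changes beyond 0.9 in size are off the plot, and the called family genes, which carry names, all lie right of the line.

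Gps2 and markers of cell types were read as checks of the labels. Gps2 was at 10.289, 10.164 and 10.187 on the GPS2KO arrays, against 10.943, 10.931 and 11.002 on the WT arrays, so 59.7% of the WT signal was left (adjusted p = 0.000256, limma). In an exact permutation test, 2-sided, p was 0.1, and 20 arrangements can give none smaller. Pearson correlations across genes were at least 0.9977 between any pair of arrays. The macrophage markers were bright, with 0 of 9 tested dim and Cd68, Csf1r and Lyz2 above 12 in both groups. Mertk and Itgam rose by 0.24 and 0.19, and 7 did not pass. Of the 9 markers 6 had a higher and 3 a lower GPS2KO mean. The lower ones were Cd14, Lyz2 and Spi1, which differed by -0.10, -0.04 and -0.04. The intensities of the 9 markers summed to between 48410 and 48696 on the GPS2KO arrays and between 46710 and 48323 on the WT arrays.

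Some markers of other cell types passed the threshold as well. Of all tested genes 6.72% were called, and 10.6% of those that were not dim. Of 10 fibroblast and stromal markers 8 were not dim, among them Acta2 at 13.00 in GPS2KO and 13.05 in WT and Col1a1 at 11.77 in GPS2KO and 11.97 in WT, while Lum and Fap were dim. Pdgfrb, Thy1 and Col1a1 fell, by 0.28, 0.30 and 0.20 on the log2 scale, and Dcn rose by 0.30. Pdgfra had the largest difference of the list, 0.31, but its groups overlapped and it did not pass. GPS2KO means were higher for 4 of the 10 markers and lower for 6. The intensities of that list summed to between 17265 and 17364 on the GPS2KO arrays and between 18659 and 18905 on the WT arrays. Acta2 was the largest part of each sum. Of 8 endothelial markers Emcn rose by 0.56 and Cdh5 by 0.35, and 6 did not pass. Of these, Pecam1, Kdr and Vwf differed by 0.28, 0.14 and -0.13, and Tek, Cldn5 and Erg were dim. The sum of the 8 was 805.3 to 868.9 in GPS2KO and 689.3 to 733.4 in WT. Of 7 osteoclast markers Ctsk rose by 0.47, Ocstamp fell by 0.68 and 5 did not pass. Their sum was 984 to 1029 in GPS2KO and 890.0 to 934.0 in WT. Ctsk, at 8.55 in GPS2KO and 8.07 in WT, was its largest part. The sum of the 4 erythroid and megakaryocyte markers tested was 5370 to 5511 in GPS2KO and 4514 to 4837 in WT. Most of it came from Pf4, which rose by 0.22. The other markers, Klf1, Itga2b and Gp9, did not pass and differed by -0.05, -0.11 and -0.16, and Klf1 and Gp9 were dim. Of 8 neutrophil markers 6 were dim and Ngp rose by 0.46, with sums of 308.2 to 341.2 in GPS2KO and 287.6 to 306.4 in WT. Ngp, at 6.48 in GPS2KO and 6.03 in WT, was the largest part. GPS2KO means were higher for 5 of these markers and lower for 3. The lower ones included the dim gene Camp, at -0.12, whose groups did not overlap. Of 9 T, NK and B cell markers 7 were dim, Cd4 rose by 0.43 and Cd79b fell by 0.46. The sums were 819.3 to 867.8 in GPS2KO and 726.6 to 750.8 in WT. Most of each sum came from Cd4, at 9.18 in GPS2KO and 8.75 in WT. Of 8 dendritic cell markers 6 were dim and 0 passed the limma threshold, also 0 at an unadjusted p under 0.05. The calls of Itgam, Col1a1, Dcn, Thy1, Cdh5, Ngp and Pf4 ended with at least 1 array left out, at adjusted p up to 0.115. Many semaphorins, plexins and neuropilins are also made by fibroblasts and endothelial cells, and the part of these cells in the family's changes was not tested. In such bulk samples fewer cells of a type and less RNA per cell cannot be told apart.

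Among the ligands, Sema6d changed most. It is a membrane-spanning class 6 semaphorin that binds plexin A1, and in mice it has been tied to macrophage polarization. Its log2 intensity was 8.37, 8.34 and 8.31 on the GPS2KO arrays, against 7.79, 7.88 and 7.71 on the WT arrays. Each GPS2KO array lay above each WT array, and the gap between the groups was wider than the spread within either. The means were 8.34 ± 0.026 in GPS2KO and 7.79 ± 0.086 in WT (SD, n = 3 each), a rise of 0.55 (SE 0.0512, 95% interval 0.43 to 0.67; adjusted p = 0.00108, limma). Slc24a5, the next tested gene after Sema6d in the RefSeq order on chromosome 2, rose too, with means of 7.60 in GPS2KO and 7.00 in WT (change 0.61, adjusted p = 0.00158, limma). It encodes a cation exchanger known from pigment cells. Sqor, the tested gene before Sema6d, differed by 0.02 (adjusted p = 0.848), and 0 of the other 8 genes nearest to Sema6d, counting 5 on each side, passed the threshold.

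The class 6 relative Sema6b, a membrane ligand of plexin A4, went the other way. Sema6b was at 8.92, 8.87 and 8.81 on the GPS2KO arrays and at 9.03, 9.09 and 9.08 on the WT arrays, without overlap. It fell by 0.20 (SE 0.0426, adjusted p = 0.0341, limma), and it did not pass with any 1 of the 6 arrays left out, at adjusted p = 0.0531 to 0.114. A pair of probe sets carried the Sema6b symbol with identical values on every array, and they were counted once. The 2 other class 6 genes, Sema6a and Sema6c, were dim and differed by -0.12 and -0.08.

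Of the 6 class 4 semaphorins, which span the membrane and are the class best known from immune cells, 2 rose and 1 fell. Sema4a, known as a costimulatory ligand on dendritic cells and macrophages, was at 8.56, 8.46 and 8.48 on the GPS2KO arrays and at 8.07, 8.12 and 8.10 on the WT arrays. The groups were far apart for their spread, with means of 8.50 ± 0.052 in GPS2KO and 8.10 ± 0.023 in WT (SD, n = 3 each). The rise was 0.40 (SE 0.0419, 95% interval 0.30 to 0.50; adjusted p = 0.00167, limma), and without any 1 array its adjusted p lay between 0.00751 and 0.0100.

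Sema4d, also called CD100, is a ligand of plexin B1 and of the lymphocyte receptor CD72. Its intensity was 11.35, 11.38 and 11.39 on the GPS2KO arrays, against 11.65, 11.69 and 11.71 on the WT arrays. The arrays of each group lay within a narrow band, and the bands did not meet. Means were 11.37 ± 0.021 in GPS2KO and 11.69 ± 0.029 in WT (SD, n = 3 each), a fall of 0.32 (SE 0.0376, 95% interval -0.40 to -0.23; adjusted p = 0.00299, limma).

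Sema4c, a ligand of plexin B2, had the smallest rise. It was at 9.19, 9.07 and 9.07 on the GPS2KO arrays and at 8.91, 8.85 and 8.92 on the WT arrays, with GPS2KO replicate 1 above the other two. The change was 0.22 (SE 0.0479, adjusted p = 0.0372, limma). It did not pass with any 1 of the 6 arrays left out (adjusted p = 0.0730 to 0.107) or when each array was centred on its median (adjusted p = 0.0541). The remaining class 4 genes did not pass: Sema4b, which was well above the dim limit, differed by -0.01 (95% interval -0.13 to 0.10), and the dim genes Sema4f and Sema4g differed by 0.09 and -0.09.

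Sema7a is the family's lipid-anchored member, a ligand of plexin C1 and of the integrin formed by the Itga1 and Itgb1 products, through which it acts on monocytes and macrophages. Sema7a was at 10.67, 10.68 and 10.66 on the GPS2KO arrays and at 10.85, 10.84 and 10.87 on the WT arrays. Replicates of each group nearly coincided, with SDs of 0.0077 in GPS2KO and 0.017 in WT. The fall of 0.18 (SE 0.0355, 95% interval -0.27 to -0.10; adjusted p = 0.0221, limma) was the smallest of the called changes. It did not pass without any 1 of the 6 arrays, at adjusted p = 0.0553 to 0.0824.

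The secreted ligands of class 3 gave no call. Of 7 genes, Sema3a to Sema3g, 0 passed in limma and 1 had an unadjusted p under 0.05, and 4 were dim. Their changes ran from -0.18 for Sema3a (adjusted p = 0.234) to 0.12 for Sema3e (adjusted p = 0.300). Sema3b, Sema3c and Sema3f, which were not dim, differed by -0.13, -0.02 and -0.09, and for each of these the arrays of the groups overlapped. Both class 5 genes, Sema5a and Sema5b, whose proteins carry thrombospondin repeats, were dim and differed by -0.13 and -0.04, with 0 calls in limma and 0 at an unadjusted p under 0.05.

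Among the receptors, the neuropilins differed from each other in what was measured. Nrp1, a co-receptor for class 3 semaphorins and for vascular endothelial growth factor, was at 11.76, 11.76 and 11.79 on the GPS2KO arrays and at 11.53, 11.49 and 11.51 on the WT arrays. The groups stood apart with little spread, at 11.77 ± 0.017 in GPS2KO and 11.51 ± 0.017 in WT (SD, n = 3 each). The rise was 0.26 (SE 0.0360, 95% interval 0.18 to 0.35; adjusted p = 0.00544, limma), and adjusted p reached 0.0284 at most when 1 array was left out. Nrp2, the other co-receptor, was at 11.55, 11.61 and 11.67 in GPS2KO and at 11.60, 11.65 and 11.64 in WT. Those arrays overlapped, and the change of -0.02 had a 95% interval of -0.12 to 0.08. The difference between the changes of Nrp1 and Nrp2 was not tested.

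Plxnd1 encodes plexin D1, a receptor of Sema3e and Sema4a that is best known from blood vessels and is also made by macrophages. It was at 10.94, 10.96 and 10.95 on the GPS2KO arrays and at 11.12, 11.25 and 11.21 on the WT arrays. The GPS2KO arrays nearly coincided, below the more scattered WT arrays. Plxnd1 fell by 0.24 (SE 0.0446, 95% interval -0.35 to -0.14; adjusted p = 0.0177, limma). The call held without WT replicate 1 (adjusted p = 0.0184) and ended without any other array, at adjusted p up to 0.0649.

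Plxna2, a receptor of class 6 semaphorins and of neuropilin-bound class 3 semaphorins, had the largest fall. Its intensities were 7.92, 8.07 and 8.13 on the GPS2KO arrays and 8.33, 8.59 and 8.46 on the WT arrays. Spread was wider than for the other called genes, with SDs of 0.10 in GPS2KO and 0.13 in WT, but the groups did not overlap. The fall was 0.42 (SE 0.0782, 95% interval -0.60 to -0.24; adjusted p = 0.0192, limma). It did not pass without GPS2KO replicate 1 or 2 or WT replicate 2 or 3, at adjusted p up to 0.0686. The other A plexins did not pass: Plxna1, the partner of Sema6d, differed by -0.08 (95% interval -0.21 to 0.05), Plxna3 by -0.07 and Plxna4 by 0.07.

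Of the B plexins, receptors of class 4 semaphorins, 0 passed in limma and 1 had an unadjusted p under 0.05. That gene was Plxnb1, at 6.41, 6.39 and 6.41 on the GPS2KO arrays and at 6.59, 6.54 and 6.50 on the WT arrays. Its groups did not overlap, and the change was -0.14 (adjusted p = 0.0868, limma). It passed when dim genes were left out before the fit (adjusted p = 0.0348). A further probe set of Plxnb1, with means of 5.71 in GPS2KO and 5.74 in WT, differed by -0.03. Plxnb2 differed by -0.05 (95% interval -0.15 to 0.06) and Plxnb3 by -0.13. Plxnc1, the receptor of Sema7a, was at 10.53, 10.64 and 10.63 in GPS2KO and at 10.61, 10.65 and 10.54 in WT. The arrays of Plxnc1 overlapped fully, and its interval ran from -0.11 to 0.11.

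**Figure D3:**
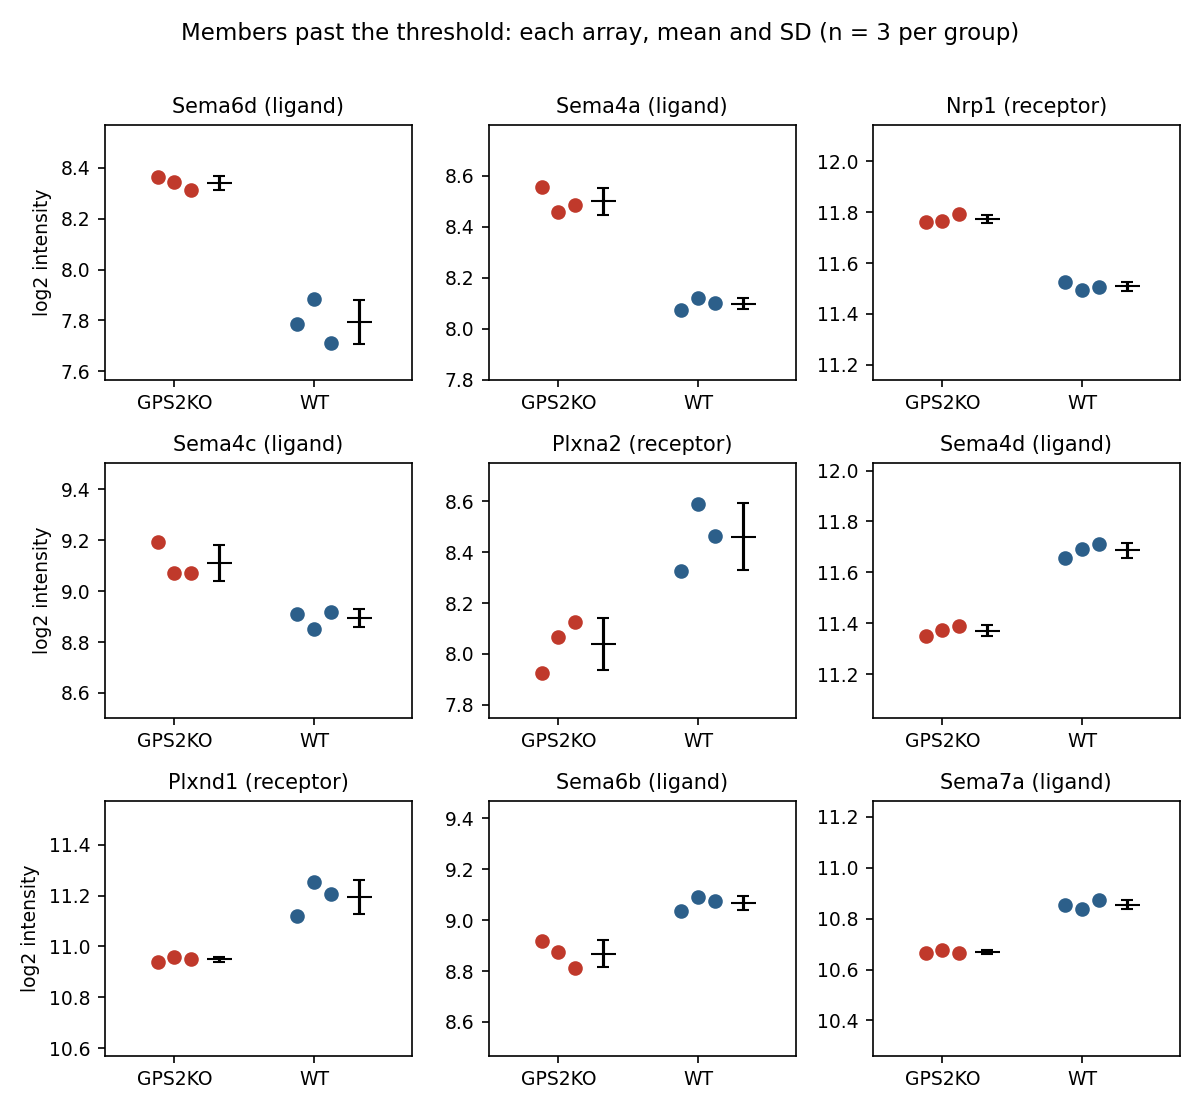
Log2 intensity (y axis) of the 9 called family genes on each array, GPS2KO in red left of WT in blue, with the mean and SD of 3 arrays as black bars. Every panel spans 1 log2 unit, and in each the GPS2KO and WT arrays do not overlap.

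Known pairs of ligand and receptor can be set beside each other. Sema6d rose by 0.55, while its receptor Plxna1 differed by -0.08 and did not pass. Sema4a rose by 0.40, while Plxnd1 fell by 0.24. The Plxnd1 call held without WT replicate 1 and ended without any other array. Sema4c rose by 0.22, with Plxnb2 at -0.05, and Sema6b fell by 0.20, with Plxna4 at 0.07. Neither Plxnb2 nor Plxna4 passed. Sema4d fell by 0.32, with Plxnb1 at -0.14 and its receptor Cd72 at -0.01, neither past the threshold. Sema7a fell by 0.18, with Plxnc1 at 0.00 and Itgb1 at 0.01, while the integrin chain Itga1 fell by 0.20. These are values from the same 6 arrays, and no test of pairs was made.

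Neighbouring genes were examined for the called members. With 5 tested genes taken on each side (8 in all for Nrp1, which lies near the end of chromosome 8), 0 neighbours passed the threshold around Sema4a, Sema4c, Sema6b, Sema7a, Nrp1 and Plxna2. Near Sema4d 1 neighbour fell and near Plxnd1 1 rose, neither of them adjacent. Slc24a5 beside Sema6d was the only adjacent gene of a called member that passed. Of all tested genes 6.72% were called, and whether neighbours moved together was not tested.

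Sequence before the annotated transcription start is shown for the called members with 1 start in the RefSeq promoter table. It is also shown for the first of 2 listed starts of Sema6d, the member that changed most. Which starts these macrophages used was not measured. Of the 31 genes 26 had a window in that table, 37 windows in all, each running from 250 bases before to 50 after a start in build GRCm38.p6. The family's windows had a median GC content of 63.7%, against 52.7% for all 32851 windows. A GC box, the Sp1-type motif GGGCGG searched on both strands, was in 27 of the 37 and in 35.7% of all windows. It was in 13 of the 17 windows of the called genes, with at least 1 such window for each of the 9 genes. The called genes had 1 to 4 windows each, and no share per gene over all genes was computed for any motif. The TATA box letters TATAAA were in 0 of the 37 and in 13.6% of all windows. GC boxes are more frequent where GC content is high, and these figures describe the windows only. The 120 bases before the start are printed 5′ to 3′ on the gene's strand, with GC boxes on either strand in capitals: Sema6d at chr2:124089849-124089968 (plus strand), Sema7a at chr9:57939992-57940111 (plus strand), Nrp1 at chr8:128358953-128359072 (plus strand), Plxnd1 at chr6:115995006-115995125 (minus strand) and Plxna2 at chr1:194619709-194619828 (plus strand).
Sema6d: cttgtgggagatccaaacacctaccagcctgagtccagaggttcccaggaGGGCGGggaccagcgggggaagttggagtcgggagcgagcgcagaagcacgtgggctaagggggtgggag
Sema7a: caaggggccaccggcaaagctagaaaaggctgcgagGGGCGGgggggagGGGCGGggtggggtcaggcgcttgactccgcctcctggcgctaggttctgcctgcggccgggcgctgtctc
Nrp1: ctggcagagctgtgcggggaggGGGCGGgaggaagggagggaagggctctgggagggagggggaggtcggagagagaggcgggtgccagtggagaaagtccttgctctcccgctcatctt
Plxnd1: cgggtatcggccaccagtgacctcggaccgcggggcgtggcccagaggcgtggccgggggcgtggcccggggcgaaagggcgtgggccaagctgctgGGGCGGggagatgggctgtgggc
Plxna2: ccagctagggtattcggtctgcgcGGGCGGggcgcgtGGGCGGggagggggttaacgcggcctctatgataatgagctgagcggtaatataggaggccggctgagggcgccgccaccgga

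The printed stretches before Sema7a and Plxna2 held 2 GC boxes each, as shown in capitals, and those before Sema6d, Nrp1 and Plxnd1 held 1 each. The full windows of the first Sema6d start and of Plxnd1 also held 2 each, the further box lying after the start. Sema6d rose and Plxnd1 fell. The window of the other listed Sema6d start held no GC box. The PU.1-type letters GAGGAAG, bound by the myeloid factor Spi1, were in 11 of 37 family windows and 13.6% of all windows. They were in 4 of the 17 windows of the called genes, from 4 of the 9 genes. The AP-1 letters TGANTCA were in 3 of 37 family windows and 7.81% of all windows. These were 3 of the 17 windows of the called genes, from 3 genes. Windows with and without these letters were found among both rises and falls.

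Other genes of the pathway were mostly not called. A list of 54 co-receptors, further receptors and intracellular partners had 49 tested genes, of which 0 rose, 4 fell and 45 did not pass, or 8.16% called, close to the 6.72% of all tested genes. At an unadjusted p under 0.05 in limma there were 2 genes with a higher and 14 with a lower GPS2KO mean, 16 of 49, against 20.8% of all tested genes in either direction. Over all tested genes the split was 1672 higher and 2234 lower. The list's median change was -0.01, as it was over all tested genes, and its groups did not overlap for 16 of 49 genes, where 27.1% of all tested genes and 37.3% of those that were not dim did not. With 1 array left out, between 2 and 3 passed. With a variance trend 6 fell, 3 of them among the 4 of the main fit, and without dim genes 6 fell, with all 4 among them.

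The 4 falls lay at different steps of the pathway. Vegfc, a vascular growth factor that binds neuropilin 2, was at 6.08, 6.08 and 5.93 on the GPS2KO arrays and at 6.55, 6.66 and 6.59 on the WT arrays. It fell by 0.56 (1.48-fold, adjusted p = 0.00125, limma), with the groups well apart. Rnd3, a small GTP-binding protein whose relative Rnd1 binds plexins, fell by 0.27 (adjusted p = 0.00644), with means of 9.30 in GPS2KO and 9.58 in WT. Rras, a GTPase that plexins switch off, fell by 0.20 (adjusted p = 0.0203), with means of 11.99 in GPS2KO and 12.19 in WT, and Itga1 fell by 0.20 (adjusted p = 0.0465). The Rras call held without GPS2KO replicate 1 and ended without any other array, and the Itga1 call ended without any 1 array, at adjusted p up to 0.0820 and 0.143. Itga1 also did not pass after quantile normalization or with a variance trend.

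Partners of plexin A1 in myeloid cells did not pass. Trem2, a receptor that pairs with the adaptor Tyrobp and joins plexin A1 in a complex, was at 12.78 in GPS2KO and 12.75 in WT, and Tyrobp was at 12.48 in GPS2KO and 12.39 in WT. Their changes were 0.03 (95% interval -0.06 to 0.11) and 0.09 (-0.01 to 0.20). L1cam, a co-receptor of neuropilin 1, had the next smallest p after the falls and differed by -0.24 (adjusted p = 0.0908).

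**Figure D4:**
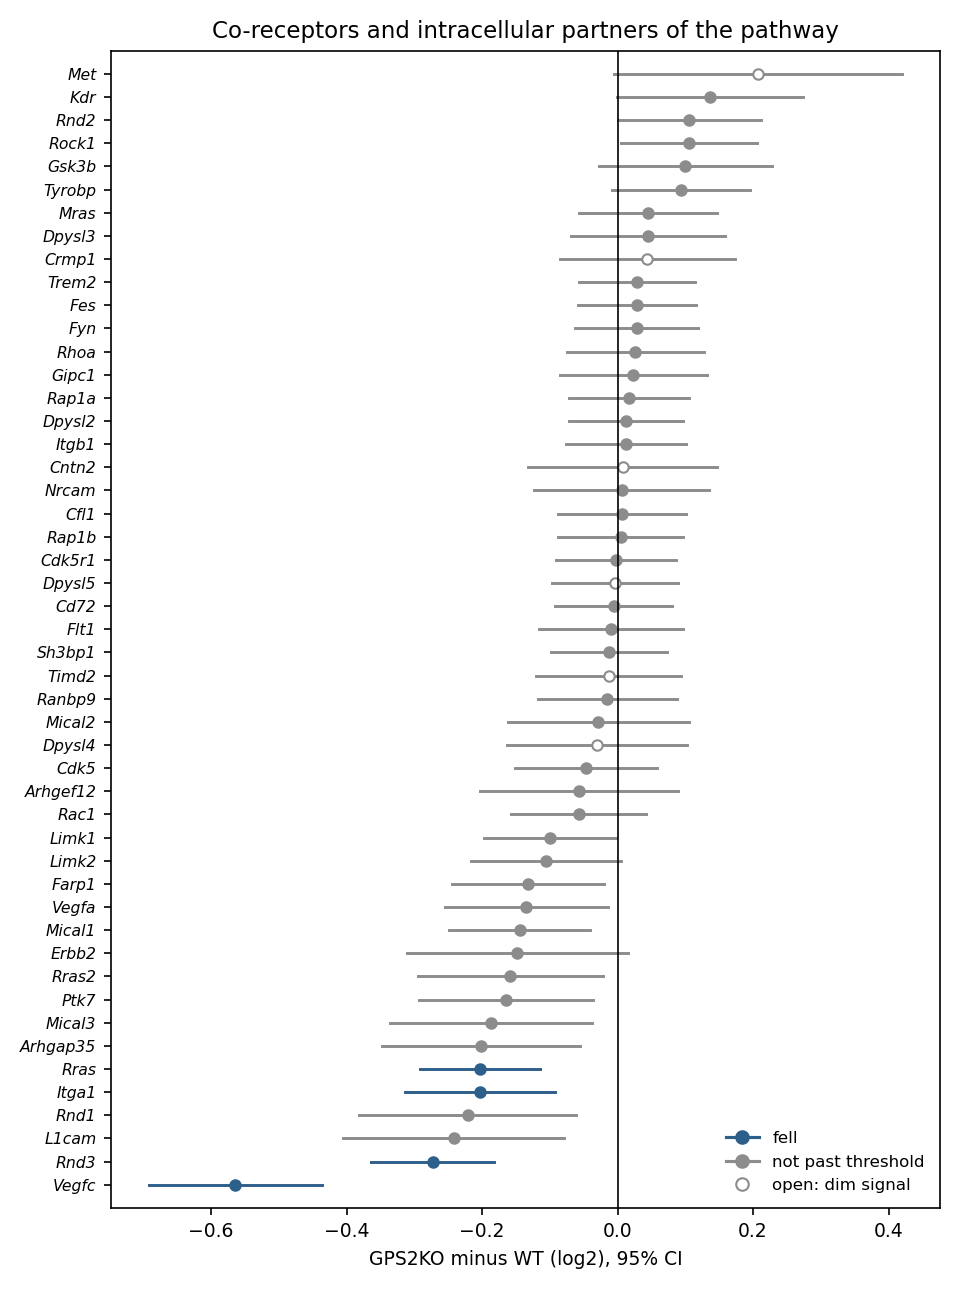
Change GPS2KO minus WT on the log2 scale (x axis), with limma's 95% confidence interval, of the 49 tested co-receptors and intracellular partners of the pathway. Blue marks the 4 falls (Vegfc, Rnd3, Rras and Itga1), grey the 45 genes that did not pass, and open points are dim.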

How the data were processed

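RNA of 6 macrophage samples was measured on Affymetrix arrays, 1 array each. The deposited values are log2 intensities that the authors obtained by RMA with the oligo package, per the submitters' processing notes. That method corrects background, equalises array distributions by quantile normalization and summarises probes by median polish, which makes arrays more alike. Not given in the sources used here were the versions and the genome build. The table held 35556 probe sets, of which the platform annotation held by GEO, possibly outdated, gave 21218 exactly 1 symbol, 1881 several and left 12457 unlisted. Of the single-symbol probe sets 21185 matched RefSeq (GRCm38.p6) by gene number and 0 symbols changed. Per gene the probe set with the highest mean over all arrays was used, which gave 18820 genes. For the 1386 genes with several probe sets this leaves the others out, and 1 probe set shared by Sema4g and another gene was not used.

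All 18820 genes were fitted with limma 3.58.1 in R 4.3.3 (lmFit, eBayes, group as the only term, 2-sided p, Benjamini-Hochberg over all genes, threshold 0.05). Precision is limited by the number of arrays. Groups came from the sample titles. In the naming rule every family gene was accounted for, with values per array for those past the threshold. Pathway genes were named where they passed. Trem2, Tyrobp, Cd72, Itgb1, L1cam, Slc24a5, Sqor and markers that did not pass were named after their values were seen. The members and lists were chosen with earlier results of these data known. Alternatives were quantile normalization, median centring, a variance trend, robust variances, leaving out dim genes, the mean of a gene's probe sets, leaving out each array and the replicate number as a block. On simulated data for GPS2KO against WT over 18820 genes, the fit recovered 41.4% of 70 genes shifted by 0.25 (log2), 72.9% of 70 shifted by 0.5 and 98.3% of 60 shifted by 1, and it called 4 unshifted genes. These shares apply to the simulated data and need not hold for the real arrays.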

Additional observations from a re-analysis of the deposited data

How the results depend on the processing

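The count of 9 called family genes lay between 8 and 10 under quantile normalization, median centring, a variance trend, robust variances, without dim genes and with the mean of probe sets, and no called gene changed direction under any setting run. With 1 array left out it lay between 4 and 6, that of ligands was 3 each time (main count 6), that of receptors lay between 1 and 3 and that of pathway partners between 2 and 3. Same-numbered arrays of the groups did not deviate together (correlations of deviations 0.0035, 0.026 and -0.0060), so the numbers were not taken as pairs. With the replicate number as a block, 6 family genes, 3 ligands, 3 receptors and 2 partners passed. Among all tested genes 1265 were called, against 2174 with a variance trend, 1962 without dim genes and 749 to 842 with 1 array left out. Median centring gave 460 rises and 1061 falls (30.2% rises), where the fit without it gave 545 rises and 720 falls (43.1% rises). Dim signal limits what can be seen for 10 of the 20 semaphorins.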
